A study of Mus musculus with 8 samples.

Results

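Panx2 was immunoprecipitated from chromatin of primary hippocampal neural progenitor cells, and a peak list was deposited for each of 2 repeats. The regions described here are all peaks of these 2 lists on chromosomes 1 to 19, 143578 in repeat 1 and 471569 in repeat 2, together 615147 of the 1719263 peaks in the 6 lists of the series. They were split by their mm10 coordinates. A peak that shared at least 1 bp with a peak of the other repeat was counted as in both, and every other peak as repeat 1 only or repeat 2 only. This gave 40568 repeat 1 peaks in both and 103010 in repeat 1 only, with 42166 repeat 2 peaks in both and 429403 in repeat 2 only.

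All cells came from male C57BL/6 mice, were kept as primary cells in B27-supplemented medium and were fixed with formaldehyde. The labels give no genotype, agent or age, and no label tells the groups apart other than the protein and the repeat number. Besides the Panx2 ChIP there were ChIP libraries for Mgea5 and Polr1c, with 2 repeats each, and 2 input libraries that were not analysed here, 8 samples in all. The labels do not state whether the repeats are separate cultures or animals, and the difference between the Panx2 repeats may be technical. A peak list holds no expression values, so the labelled cell type could not be checked against its markers.

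Panx2 belongs to the pannexins, membrane proteins that form large-pore channels and are related in structure to the innexins of invertebrates. It is strongly expressed in brain and has been found in neural progenitor cells of the hippocampus. Pannexins are not known as DNA-binding proteins, and ChIP recovers DNA that is crosslinked to a protein directly or through other proteins. Mgea5, now named Oga, removes O-GlcNAc from proteins, and Polr1c is a subunit of RNA polymerases I and III. The series asks which sites on the genomic locus of miR-9, a microRNA of neural progenitors, these proteins occupy.

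The repeats had 2 unlike lists. Repeat 1 peaks covered 5.01% of the span of chromosomes 1 to 19 and repeat 2 peaks 12.8%, and 15.3 Mb was covered by both. The shared part was 12.5% of the bp in repeat 1 peaks and 4.89% of the bp in repeat 2 peaks. Over all peaks, repeat 2 thus covered about the same share of repeat 1 peaks as of the whole span. By bp this turned at a −log10 p of at least 2 in both lists. Repeat 2 then covered 17.7% of the bp of the 637 repeat 1 peaks left, against 1.52% of the span, a ratio of 11.7. By count, 63 of the 637 (9.89%) were in both, and no background share was taken for this count. Wide peaks weigh most in a share of bp. Repeat 1 peaks of up to 12382 bp at the start of chromosome 9 were in both, while repeat 1 only peaks at this cut had a median width of 397.5 bp. The peak names show that the repeats were called in different runs, since repeat 1 carries the same run directory as Polr1c repeat 1 and repeat 2 that of the other 3 lists. The part of the calling run in any difference between the repeats cannot be told apart from the repeat itself.

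Most peaks were weak in both lists, and a smaller share of repeat 1 peaks had a −log10 p of at least 2, 0.444% against 11.4%. The top of the lists went the other way, with a highest −log10 p of 238 in repeat 1 and 43.8 in repeat 2. The lists come from different calling runs, so their p values are given side by side, and the same cut need not mean the same in both. The deposited fold enrichment, the authors' own value for each peak over background, had a median of 1.80 in repeat 1 and 1.84 in repeat 2. In repeat 1 a single −log10 p, 1.28, was carried by 51.5% of the peaks, and in repeat 2 the most common value, 1.45, by 6.66%. A −log10 p of at least 2 was reached by 637 repeat 1 peaks and 53576 repeat 2 peaks. The −log10 q was 0 for 99.9% of repeat 1 peaks and 63.8% of repeat 2 peaks, which is a q of 1. The depth of the libraries is unknown here, so the lengths of the lists do not compare the amount of bound DNA.

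The sequences of 6 promoters are given as examples of gene starts with peaks of both repeats, of repeat 1 only or of repeat 2 only. For each class they are the 2 protein-coding promoter windows of highest fold, and each runs over 250 bases before to 50 bases after an annotated start (RefSeq, GRCm38.p6, on the strand of the gene). Capitals mark CG, the dinucleotide in which mammalian DNA is methylated and which is dense at the starts of housekeeping and many developmental genes. Slc25a1, the mitochondrial citrate carrier (chr16:17928170-17928469, minus strand), and Gyg, which primes glycogen synthesis (chr3:20155067-20155366, minus strand), had both. Jmjd1c, a member of a histone demethylase family (chr10:67185500-67185799, plus strand), and C4bp, an inhibitor of complement (chr1:130661569-130661868, minus strand), had repeat 1 only. Ubxn2a, an adaptor of the p97 segregase (chr12:4907504-4907803, minus strand), and Lhx2, a transcription factor of the developing cortex and hippocampus (chr2:38339031-38339330, plus strand), had repeat 2 only.
Slc25a1: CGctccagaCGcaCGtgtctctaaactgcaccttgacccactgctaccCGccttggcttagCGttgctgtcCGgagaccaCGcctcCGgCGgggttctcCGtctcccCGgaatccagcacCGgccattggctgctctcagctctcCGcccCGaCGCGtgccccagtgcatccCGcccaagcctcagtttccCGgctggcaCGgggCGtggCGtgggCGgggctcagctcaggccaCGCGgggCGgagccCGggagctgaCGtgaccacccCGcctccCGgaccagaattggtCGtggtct
Gyg: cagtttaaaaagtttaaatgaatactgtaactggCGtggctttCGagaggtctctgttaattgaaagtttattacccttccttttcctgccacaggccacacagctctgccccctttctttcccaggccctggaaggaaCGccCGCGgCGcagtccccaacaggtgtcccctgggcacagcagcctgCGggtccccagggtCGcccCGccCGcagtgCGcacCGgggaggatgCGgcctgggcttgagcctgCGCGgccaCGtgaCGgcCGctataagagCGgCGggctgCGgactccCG
Jmjd1c: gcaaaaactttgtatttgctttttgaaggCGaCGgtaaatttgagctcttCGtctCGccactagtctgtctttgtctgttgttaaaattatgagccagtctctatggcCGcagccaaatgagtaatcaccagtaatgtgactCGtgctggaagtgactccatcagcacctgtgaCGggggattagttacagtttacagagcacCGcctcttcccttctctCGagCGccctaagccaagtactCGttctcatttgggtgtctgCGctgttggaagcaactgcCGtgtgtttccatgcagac
C4bp: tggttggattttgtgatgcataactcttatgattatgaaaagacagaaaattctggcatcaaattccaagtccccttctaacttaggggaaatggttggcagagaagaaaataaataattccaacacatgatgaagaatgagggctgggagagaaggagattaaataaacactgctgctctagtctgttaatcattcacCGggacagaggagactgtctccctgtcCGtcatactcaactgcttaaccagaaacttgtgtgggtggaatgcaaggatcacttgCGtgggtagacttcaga
Ubxn2a: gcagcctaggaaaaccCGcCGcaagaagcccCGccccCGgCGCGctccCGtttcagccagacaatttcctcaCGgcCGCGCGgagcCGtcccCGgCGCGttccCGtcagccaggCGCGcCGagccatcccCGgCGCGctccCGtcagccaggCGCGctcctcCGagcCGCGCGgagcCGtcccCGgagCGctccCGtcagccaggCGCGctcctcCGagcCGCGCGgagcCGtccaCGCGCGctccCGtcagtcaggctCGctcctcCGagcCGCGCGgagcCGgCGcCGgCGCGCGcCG
Lhx2: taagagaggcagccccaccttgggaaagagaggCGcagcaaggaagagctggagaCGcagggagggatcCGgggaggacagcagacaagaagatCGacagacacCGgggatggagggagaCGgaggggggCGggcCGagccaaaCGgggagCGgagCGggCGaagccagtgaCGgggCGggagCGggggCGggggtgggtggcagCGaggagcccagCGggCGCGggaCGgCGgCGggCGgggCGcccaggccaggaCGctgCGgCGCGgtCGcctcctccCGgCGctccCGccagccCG
These windows held 30 CG for Slc25a1 and 22 for Gyg, 13 for Jmjd1c and 3 for C4bp, and 56 for Ubxn2a and 34 for Lhx2. The fold at Slc25a1 was 1.97 in repeat 1 and 3.42 in repeat 2, and at Gyg it was 1.79 in repeat 1 and 3.46 in repeat 2. Jmjd1c had a fold of 2.43 and C4bp one of 2.31 in repeat 1, with no peak of repeat 2. Ubxn2a had a fold of 4.44 and Lhx2 one of 4.19 in repeat 2, with no peak of repeat 1. In these examples the windows of the repeat 2 peaks were richer in CG than those of repeat 1 only, and the same order was seen over all promoters.

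RefSeq gave 20084 promoter windows for 16456 of the 20661 protein-coding genes. A repeat 1 peak lay in 813 of them (4.05%), a repeat 2 peak in 10034 (50%), and peaks of both in 315 (1.57%). The median number of CG was 15 in windows with both, 4 in the 498 windows with repeat 1 only, 21 in the 9719 with repeat 2 only, 6 in the 9552 with neither, and 14 over all windows. Of the windows with repeat 1 only, 52.6% held fewer than 5 CG, against 42.9% of those with neither and 27.5% of all windows. The rule sets this in part, since repeat 1 only leaves out the windows with a repeat 2 peak, which are richer in CG. Before the split, a repeat 1 peak lay in 5.77% of windows with fewer than 5 CG and in 2.84% of those with 15 or more. Of the windows with repeat 2 only, 65.4% held 15 or more CG, against 31.7% of those with neither and 48.1% of all windows. The search used the letters CG, which read the same on both strands, and 95.6% of all windows held at least 1.

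Base composition separated the repeats in the same way. Windows were put into 6 groups by their share of G and C. In the group of lowest share, 18.3 to 45%, a repeat 1 peak lay in 6.86% of windows and a repeat 2 peak in 13.9%. In the group of highest share, 68.3 to 89.3%, the values were 1.41% for repeat 1 and 86.6% for repeat 2. The repeat 1 share in the other 4 groups lay between 3.16% and 4.96%, and the repeat 2 share was higher in each group than in the one before. The part of base composition in the difference between the repeats was not tested.

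Around gene starts the repeats went opposite ways. At the annotated start of windows with 15 or more CG, repeat 1 covered 1.89% of starts, against a mean of 4.85% at distances of 5 to 10 kb. Repeat 2 covered 60.1% of the same starts, against 22.3% at 5 to 10 kb, and 71.9% at 250 bp downstream. The ratio of start to surroundings was 0.391 in repeat 1 and 2.69 in repeat 2. With fewer than 5 CG the contrast was small, with 4.52% at the start against 5.11% around it in repeat 1, and 15.8% against 13.0% in repeat 2. Panx2 repeat 1 dipped where Panx2 repeat 2 peaked, and the 2 other broad lists differed from each other as well: at CG-rich starts the ratio was 2.08 in Mgea5 repeat 1 and 1.01 in Mgea5 repeat 2.

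**Figure D1:**
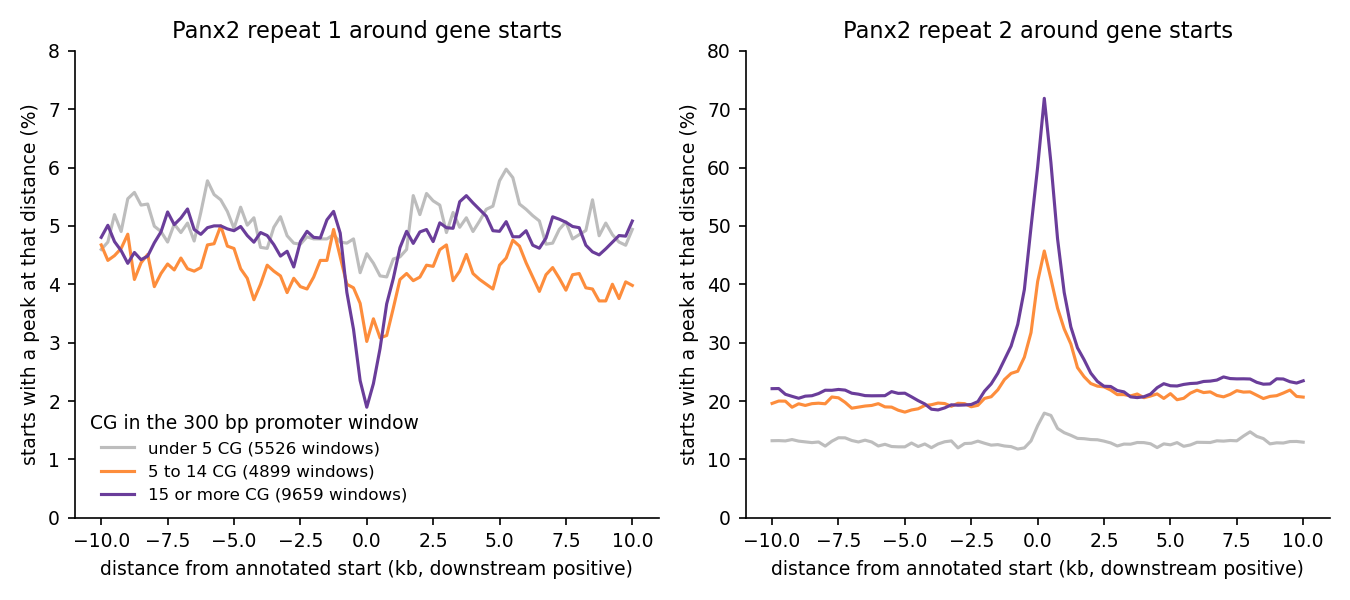
Share of annotated protein-coding starts (y axis, %) that lie in a Panx2 peak at each distance from the start (x axis, kb, downstream positive), for windows grouped by their number of CG. Repeat 1 (left, axis up to 8%) falls to 1.89% at the start of CG-rich windows, and repeat 2 (right, axis up to 80%) stands at 60.1% there and at 71.9% at 250 bp downstream.

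The classes differed in width, while within a repeat their median folds were nearly equal. The median width was 907 bp for repeat 1 peaks in both, 643 bp for repeat 1 only, 639 bp for repeat 2 peaks in both and 504 bp for repeat 2 only. Width enters the rule, because a wider peak has more chances to share 1 bp, so this order is a description. Over 4 groups of repeat 1 peaks of increasing width, the share in both was 19.4%, 23.6%, 29.6% and 40.4%. The median folds were 1.81 in both and 1.80 in repeat 1 only for the repeat 1 peaks, and 1.84 in each class of the repeat 2 peaks. No repeat 1 peak was narrower than 263 bp and no repeat 2 peak narrower than 149 bp. At the threshold, 2529 repeat 1 peaks shared 1 to 50 bp with a repeat 2 peak, and 2521 shared none but had one within 50 bp. The median repeat 1 peak in both shared 297 bp, 36.6% of its width. An overlap of 50% of both peaks was met by 7662 repeat 1 peaks, or 5.34%.

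**Figure D2:**
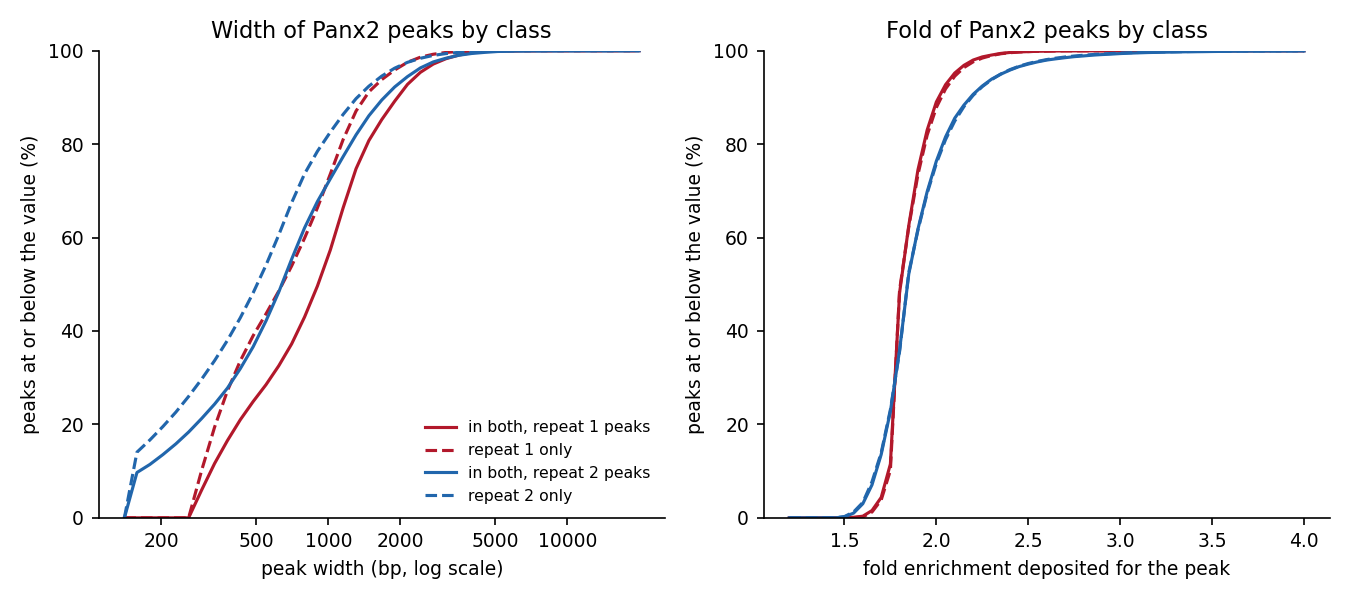
Cumulative share of peaks (y axes, %) by width (left, bp, log scale) and by deposited fold (right, no unit, peaks up to a fold of 4), with solid lines for peaks in both and dashed lines for peaks of 1 repeat only. Repeat 1 peaks in both are the widest, with a median of 907 bp, while the fold curves of the classes of a repeat lie on each other.

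Over all peaks, the overlap of the repeats was no higher at the peaks than around them. Repeat 2 peaks covered 12.6% of the midpoints of repeat 1 peaks and 13.0% of the positions 10 to 20 kb from them. The midpoints of repeat 2 peaks lay in repeat 1 peaks in 5.10% of cases, against 5.18% at 10 to 20 kb. These values cover all peaks, and the ratio of 11.7 to the span at a −log10 p of at least 2, a ratio by bp, goes the other way. By the same measure, Mgea5 repeat 1 covered 23.9% of the repeat 2 midpoints and 18.1% of the positions around them. For the repeat 1 midpoints the Mgea5 repeat 1 values were 15.3% at the midpoint and 15.3% around it. Mgea5 repeat 2 covered 13.0% of the repeat 1 midpoints, against 12.3% around them, where the values ranged between 12.2% and 12.5%, and 17.4% of the repeat 2 midpoints, against 14.1% around them. Polr1c repeat 1 covered 0.0495% of the repeat 1 midpoints, against 0.0141% around them, and 0.0216% of the repeat 2 midpoints, against 0.0136% around them. For Polr1c repeat 2 the values were 0.347% against 0.327% at repeat 1 midpoints, and 0.947% against 0.413% at repeat 2 midpoints.

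The repeats also took different parts of the chromosomes. Bins of 1 Mb were grouped by their number of protein-coding genes. A gene was counted in the bin that held its midpoint, so a bin with no gene midpoint can still hold part of a gene. The covered share in repeat 1 was 5.11% in the 269 bins with no gene midpoint, 5.47% at 1 to 3 genes and 5.21% at 4 to 8. It was 4.92% at 9 to 15, 4.61% at 16 to 30 and 4.06% in the 108 bins with over 30. In repeat 2 it was 5.42%, 9.31%, 13.5%, 16.1%, 19.4% and 20.6% in the same order of bins. The ratio of the most gene-dense bins to those with no gene midpoint was 0.794 in repeat 1 and 3.80 in repeat 2. As a description over 2394 bins, which share their libraries and differ in mappability and base composition, Spearman's rho of coverage with the number of genes was −0.20 in repeat 1 and 0.59 in repeat 2. Between the repeats it was −0.02. Repeat 2 had a rho of 0.94 with Mgea5 repeat 1 and 0.89 with Mgea5 repeat 2, while repeat 1 had 0.13 and 0.25 with the same lists. The Mgea5 lists had a rho of 0.90 with each other, so this likeness was not particular to lists of 1 protein. Panx2 repeat 2 and both Mgea5 lists share a calling run, and the part of the run in these values was not tested.

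**Figure D3:**
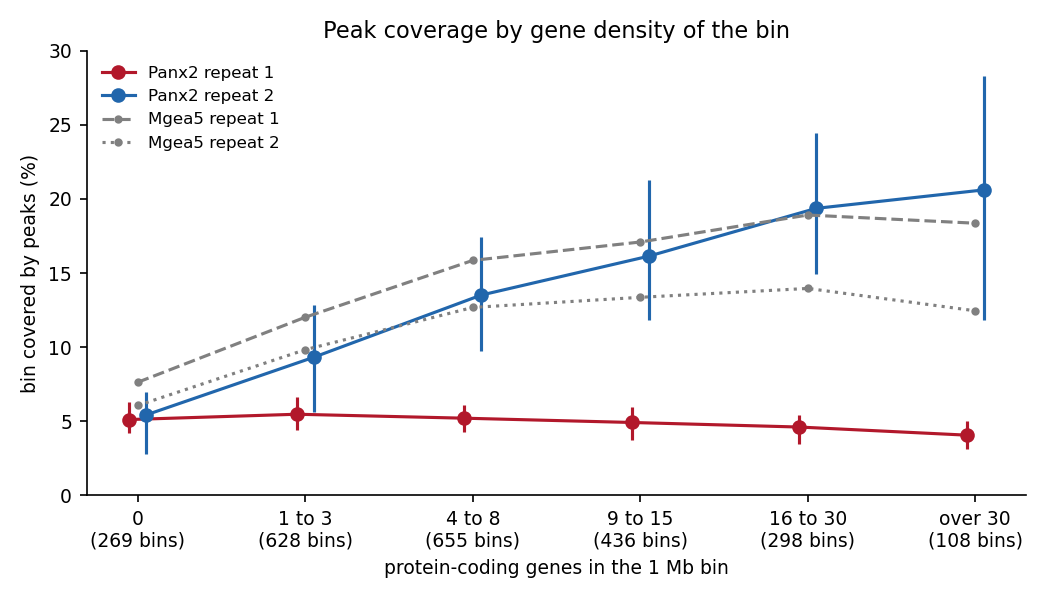
Mean share of a 1 Mb bin covered by peaks (y axis, %) against the number of protein-coding genes with their midpoint in the bin (x axis, with the number of bins). Both Panx2 repeats have vertical lines over the quartiles of the bins, and both Mgea5 lists are in grey. Repeat 1 stays between 4.06% and 5.47%, and repeat 2 rises with the number of genes to 20.6%.

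Within bins of like gene density, the share of repeat 1 bp that repeat 2 also covered stayed close to what repeat 2 covered there. It was 6.16% against 5.42% in the bins with no gene midpoint, 13.5% against 13.5% at 4 to 8 genes, and 17.8% against 20.6% in the bins of over 30 genes. Repeat 1 covered more than repeat 2 in 382 of the 2394 bins, among them 153 of the 269 bins without a gene midpoint and 9 of the 108 with over 30. The bin in which repeat 1 exceeded repeat 2 by most was chr7:22000001-23000000, with 14.5% in repeat 1 and 6.96% in repeat 2. The next was chr7:20000001-21000000, with 12.8% in repeat 1 and 5.83% in repeat 2. Each holds 28 protein-coding genes, most of them of the Vmn1r family of pheromone receptors. These genes lie in arrays of near-identical copies, so the placing of reads among them is uncertain. Repeat 2 exceeded repeat 1 by most in chr10:80000001-81000000, which holds 54 genes such as Gpx4, Stk11 and Tcf3, with 3.16% in repeat 1 and 40.9% in repeat 2.

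The place of the classes among genes follows in part from the rule, since repeat 1 peaks in both must lie where repeat 2 peaks lie and repeat 1 only where they do not, so these values are a description. Before the split, the midpoint lay within a protein-coding gene for 40.6% of all repeat 1 peaks and 49.0% of all repeat 2 peaks. By class the share was 48.4% of repeat 1 peaks in both, 37.6% of repeat 1 only, 48.7% of repeat 2 peaks in both and 49.0% of repeat 2 only, where such genes fill 40.3% of the span. Within 1000 bp of a gene end lay 3.68% of the midpoints of repeat 1 peaks in both, 2.10% of repeat 1 only, 4.11% of repeat 2 peaks in both and 4.75% of repeat 2 only, against 3.06% of the span. The median distance to the nearest end was 32.9 kb, 62.3 kb, 32.6 kb and 30.8 kb in the same order of classes. No midpoint of a protein-coding gene lay within 500 kb of the midpoints of 13.7% of the repeat 1 only peaks. The share was 6.07% of repeat 1 peaks in both and 5.75% of repeat 2 only.

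Peaks of the other proteins met the classes unequally, which the rule also sets in part, since repeat 2 coverage ranked the bins much as Mgea5 coverage did. Before the split, the midpoint fell in a Mgea5 repeat 1 peak for 15.3% of all repeat 1 peaks and 23.9% of all repeat 2 peaks, and that list covers 14.4% of the span. In a Polr1c repeat 2 peak it fell for 0.347% of all repeat 1 peaks and 0.947% of all repeat 2 peaks, against 0.312% of the span. By class, the Mgea5 repeat 1 share was 22.7% of repeat 1 peaks in both, 12.4% of repeat 1 only, 25.8% of repeat 2 peaks in both and 23.8% of repeat 2 only. Polr1c repeat 2 held the midpoints of 0.818%, 0.161%, 1.21% and 0.922% of the peaks in the same order of classes. Polr1c repeat 1, which covers 0.0116% of the span, held 0.123%, 0.0204%, 0.121% and 0.0119%.

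Chromosomes differed too. Repeat 1 covered 7.60% of chromosome 1 and 6.59% of chromosome 3, and 3.12% to 5.16% of each of the others. Repeat 2 covered 12.4% of chromosome 1 and 15.6% of chromosome 3, the highest value of that repeat, and 6.05% of chromosome 14, its lowest. Chromosome 14 was also the lowest in repeat 1. On chromosome 14, coverage from 20 to 40 Mb was 8.80% in repeat 1 and 17.7% in repeat 2, while from 60 to 80 Mb it was 0.262% in repeat 1 and 2.93% in repeat 2. The thin part of chromosome 14 is therefore shared by both repeats, although they were called in different runs. On chromosome 1 repeat 1 lay between 6.55% and 8.81% in every stretch of about 20 Mb.

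**Figure D4:**
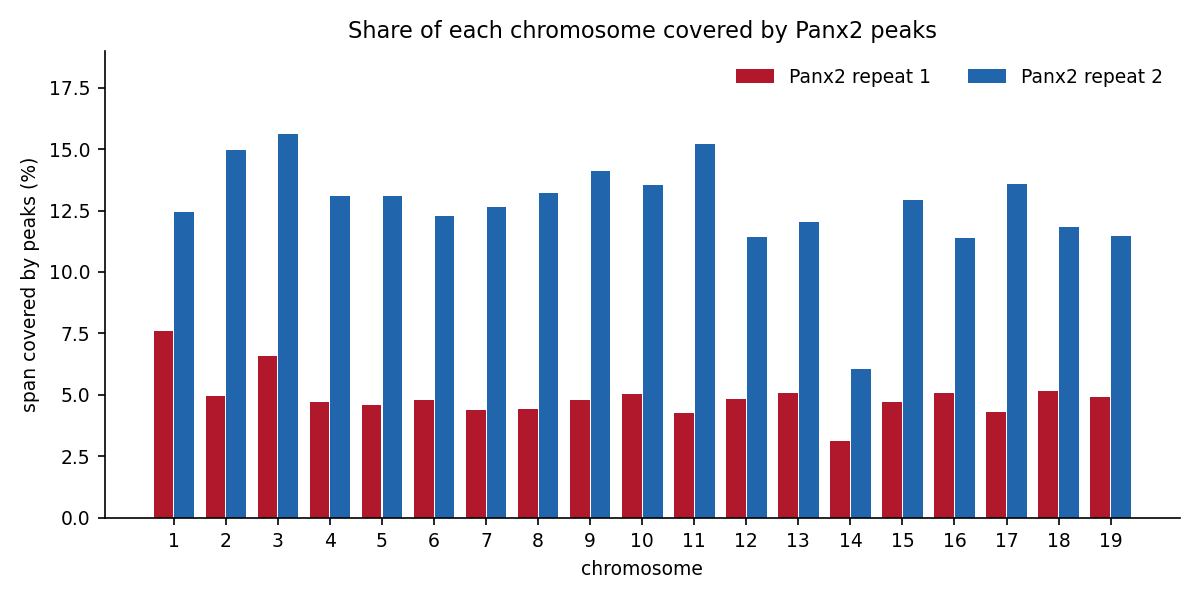
Share of each chromosome covered by Panx2 peaks (y axis, % of its span) in repeat 1 and repeat 2. Chromosomes 1 and 3 stand highest in repeat 1, at 7.60% and 6.59%, and chromosome 14 is lowest in both, at 3.12% in repeat 1 and 6.05% in repeat 2.

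Few peaks were strong by the authors' q. A q of at most 0.01 was given to 11 repeat 1 peaks, and all 11 were in both. Of these, 4 stood in a row at the start of chromosome 9, from chr9:3000241-3004805 to chr9:3027164-3038261, and the longest was 12382 bp wide. Others were chr7:145340969-145341418, with a fold of 2.05 in repeat 1 and 3.64 in repeat 2, and chr14:124801578-124802215, with 2.34 in repeat 1 and 3.55 in repeat 2. The chr14 peak lay at the end of the span of its chromosome. In repeat 1 the 11 folds ranged between 1.28 and 2.34, with a median of 1.75, against a median of 1.80 over all repeat 1 peaks. All 11 overlapped peaks of both Mgea5 lists and of Polr1c repeat 2, and 8 overlapped Polr1c repeat 1. None reached a protein-coding gene end, and 1 lay inside such a gene, Tmem267. The repeat 1 peaks of lowest q thus lay at places that most of the lists of the series share.

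In repeat 2 a q of at most 0.01 was given to 348 peaks, of which 70 were in both and 278 were repeat 2 only. They had a median fold of 3.90 and a median width of 437 bp. Mgea5 repeat 1 overlapped 79.3% of them, against 41.9% of all repeat 2 peaks, and Polr1c repeat 2 overlapped 35.3%, against 3.48%. Protein-coding gene ends lay at 45 of them (12.9%), against 6.10% of all repeat 2 peaks. Of the 45, 5 were in both and 40 repeat 2 only. The peak of highest fold was chr16:11143899-11144307, in Zc3h7a, a zinc finger protein gene, with 8.74 in repeat 2 and no repeat 1 peak. The next were chr1:25104885-25105142 in Adgrb3, an adhesion receptor of synapses, at 5.39, and chr4:98072605-98072906 in Nfia, a transcription factor of gliogenesis, at 5.20. In repeat 1 the highest fold was 3.47, at chr9:83939242-83939608 in Bckdhb, which belongs to the class repeat 1 only. The highest among repeat 1 peaks in both was 3.20, at chr13:102386861-102387175, with a repeat 2 fold of 1.74.

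Genes were scored by a peak within 1000 bp of either end, since the gene table used for this count gives no strand. Of the 20661 protein-coding genes, 5098 (24.7%) had a repeat 1 peak, 17509 (84.7%) a repeat 2 peak and 4388 (21.2%) both. Repeat 1 only was found at 710 genes (3.44%), repeat 2 only at 13121 (63.5%) and neither at 2442 (11.8%). The repeat 1 peak itself overlapped a repeat 2 peak at 2373 genes (11.5%), so at many genes with both the peaks lay apart. The median length was 6.45 kb for genes with repeat 1 only and 4.635 kb for genes with neither. It was 21.9 kb for genes with both, 19.2 kb for repeat 2 only and 17.5 kb for all. Both classes without a repeat 2 peak were thus short, and shortness was not particular to repeat 1 only. A gene end in a list that covers much of the genome is often met, and a share near these percentages is no result about a group of genes.

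Of the genes with both, Peli1, a ubiquitin ligase of innate immune signalling, had the highest geometric mean fold, with 2.40 in repeat 1 (chr11:21088931-21090663) and 3.36 in repeat 2 (chr11:21091813-21092045). These 2 peaks do not touch. Ice1, a subunit of the little elongation complex, had 1.81 in repeat 1 and 4.16 in repeat 2, and Ppp2ca, the catalytic subunit of protein phosphatase 2A, 1.72 in repeat 1 and 4.18 in repeat 2. The others of the first 8 were Ugt8a, Rc3h1, Ap3b1, Zfp982 and Thap2, with repeat 1 folds of 1.76 to 2.11 and repeat 2 folds of 3.34 to 4.12. At none of the 8 did the repeat 1 peak of highest fold overlap the repeat 2 peak of highest fold. The repeat 1 peaks at Peli1 and Zfp982 did overlap another repeat 2 peak, and those at the rest of the 8 overlapped none.

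The genes with repeat 1 only were led by Zfp808, a zinc finger gene, at a fold of 2.65, Vmn1r118, a pheromone receptor gene, at 2.41, and Acot10, an acyl-CoA thioesterase, at 2.34. Vmn2r58, Olfr473, Cfhr2, Ncoa7 and Zfp119a followed at 2.21 to 2.33. All 8 of these peaks had a q of 1, and none overlapped a peak of Mgea5 or Polr1c. Most peaks of the class are alike in this, so it is no result about these genes. Of all repeat 1 only peaks, 99.98% had a −log10 q of 0. Mgea5 overlapped 27.3% of them in its repeat 1 and 26.1% in its repeat 2, and Polr1c 0.067% and 0.835%. Genes with repeat 2 only were led by Ubxn2a at 4.44, Lhx2 at 4.19 and Il17ra, the receptor of interleukin 17, at 4.14. Steap1 and Gm46900, which share a peak, Cox5a, Tas2r129 and Heatr5a followed at 4.05 to 4.14. The q of these peaks lay between 0.000382 at Cox5a and 0.00399 at the peak of Steap1 and Gm46900. The peak at Lhx2 was 2879 bp wide, and repeat 2 covered 51.8% of that gene and repeat 1 none of it.

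Over the length of long genes the same contrast was seen. Of 2312 genes of at least 100 kb, repeat 1 covered more than repeat 2 in 178 (7.70%), and the median covered share was 4.93% in repeat 1 and 15.6% in repeat 2. Among the 215 genes of at least 500 kb, repeat 1 covered more in 46 (21.4%), with medians of 5.52% in repeat 1 and 9.80% in repeat 2. Boll, a germ cell RNA-binding protein, had the largest excess of repeat 1, with 19.7% in repeat 1 and 10.7% in repeat 2. Col5a2, a fibrillar collagen chain, had 12.6% in repeat 1 and 6.14% in repeat 2, and Cdh7, a cadherin, 9.40% in repeat 1 and 3.66% in repeat 2. At the other end, Hspg2, which encodes perlecan, had 0.269% in repeat 1 and 47.9% in repeat 2. Casz1, a zinc finger transcription factor, had 2.13% in repeat 1 and 45.0% in repeat 2.

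The gene of Panx2 itself had no repeat 1 peak at an end or along its length. Repeat 2 had a peak at its end, chr15:89058707-89061096, where the fold was 2.04 and the q 0.852, and it covered 54.8% of the gene (chr15:89059057-89073566). Panx1 had no repeat 1 peak at an end and a repeat 2 fold of 2.31, and Panx3 had neither. Among the 21 pannexin and connexin genes, the connexins being the channel proteins of gap junctions, none had a repeat 1 peak at an end (Wilson 95% interval 0 to 15.5%), against 24.7% of all genes. Repeat 2 had one at 18 of them, 85.7%, against 84.7% of all genes. The highest fold was 3.16, at Gjd2, the connexin of neuronal gap junctions.

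Repeat 2 peaks were found at most genes of neural progenitors and their signals, as at 84.7% of all protein-coding genes, where repeat 1 had 24.7%. Of 22 neural progenitor genes, 2 had a repeat 1 peak (9.09%, interval 2.53 to 27.8%) and all 22 a repeat 2 peak (100%, interval 85.1 to 100%). The 2 were Sox9, a transcription factor of neural stem cells, with 1.79 in repeat 1 and 2.75 in repeat 2, and Slc1a3, a glutamate transporter of radial glia, with 1.84 in repeat 1 and 1.79 in repeat 2. After Lhx2, the highest repeat 2 fold was 3.45, at Mki67, the proliferation marker, which had no repeat 1 peak at an end. Of 27 Notch pathway genes, 7 had a repeat 1 peak and 26 a repeat 2 peak, among them the ligand Jag1 with 1.88 in repeat 1 and 2.52 in repeat 2. Of 45 Wnt pathway genes, 9 had a repeat 1 peak and 45 a repeat 2 peak, led in repeat 1 by the ligand Wnt2b, with 2.08 in repeat 1 and 2.28 in repeat 2.

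Markers of other cell types are to be read against the same 84.7% of all genes in repeat 2 and 24.7% in repeat 1. Repeat 2 peaks were found at 15 of 15 neuronal, 10 of 10 astrocyte, 10 of 11 oligodendrocyte, 8 of 10 microglial and 8 of 8 endothelial genes. Repeat 1 had peaks at 5 of 15, 0 of 10, 3 of 11, 1 of 10 and 0 of 8 of the same lists. Lists of these sizes have wide intervals, 15.2 to 58.3% for the neuronal genes in repeat 1.

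The 39 Hox genes, which pattern the body axis and lie in CG-rich clusters, had repeat 1 peaks at 4 (10.3%) and repeat 2 peaks at all 39. Hoxd9 carried peaks of both, with 1.82 in repeat 1 and 2.71 in repeat 2. In large receptor families repeat 2 had a lower share. Of 1104 olfactory receptor genes, 245 (22.2%, interval 19.8 to 24.7%) had a repeat 1 peak and 281 (25.5%, interval 23.0 to 28.1%) a repeat 2 peak. Of 352 vomeronasal receptor genes, 99 (28.1%) had a repeat 1 peak and 85 (24.1%) a repeat 2 peak. The repeat 1 shares lay near its 24.7% for all genes, and the repeat 2 shares lay below its 84.7%. Vmn2r117 had a fold of 2.31 in repeat 1 and 2.03 in repeat 2, and repeat 1 covered 36.6% and repeat 2 4.64% of its length.

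The other lists are given beside the 24.7% of all genes in repeat 1 and the 84.7% in repeat 2. Ribosomal protein genes had repeat 1 peaks at 25 of 79 (31.6%) and repeat 2 peaks at 74 (93.7%), and those of replication-dependent histones at 16 of 64 (25%) in repeat 1 and 57 (89.1%) in repeat 2. Genes of the proteasome had repeat 1 peaks at 12 of 39 and repeat 2 peaks at 36, those of oxidative phosphorylation at 27 of 89 in repeat 1 and 81 in repeat 2, and solute carrier genes at 99 of 334 in repeat 1 and 309 in repeat 2. For the Zfp zinc finger genes the counts were 119 of 388 in repeat 1 and 341 in repeat 2, for keratins 8 of 53 in repeat 1 and 47 in repeat 2, and for clustered protocadherins, cell adhesion proteins of neurons, 10 of 57 in repeat 1 and 43 in repeat 2. Of 39 subunits and factors of RNA polymerases I and III, 11 had a repeat 1 peak and 35 a repeat 2 peak, and Polr1c had no repeat 1 peak and a repeat 2 fold of 2.03. Of 11 genes of O-GlcNAc and hexosamine metabolism, 1 had a repeat 1 peak, Eogt at 1.74, and 10 a repeat 2 peak, among them Oga at 2.15. For 38 long synaptic genes, with a median length of 1147 kb, the counts were 10 in repeat 1 and 29 in repeat 2. The median covered share of these long genes was 4.86% in repeat 1 and 6.05% in repeat 2. Over all genes, which are mostly much shorter, it was 2.15% in repeat 1 and 19.4% in repeat 2. Among genes of at least 500 kb it was 5.52% in repeat 1 and 9.80% in repeat 2, so the repeat 1 value was not raised for genes of such length.

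**Figure D5:**
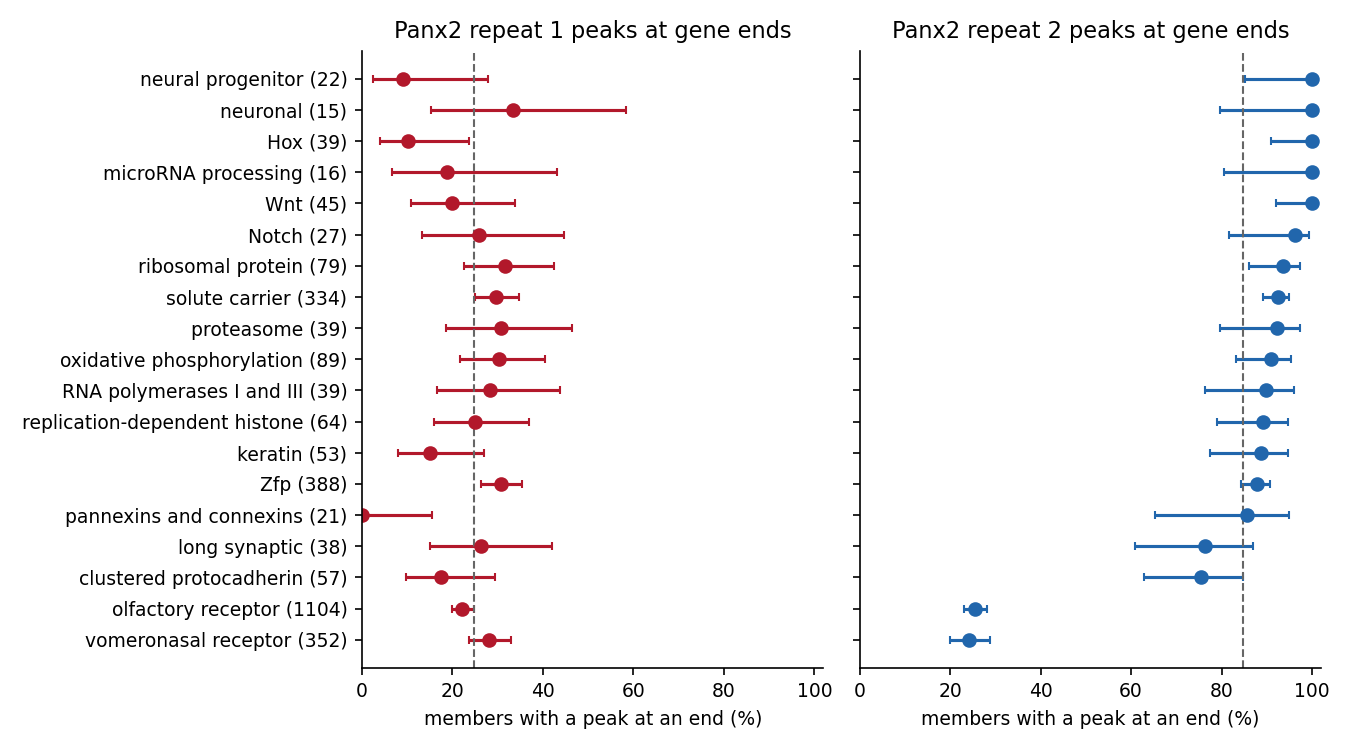
Share of the members of each gene list of 15 or more genes (number in brackets) with a Panx2 peak within 1000 bp of a gene end (x axes, %), in repeat 1 (left) and repeat 2 (right), with Wilson 95% intervals and the share of all protein-coding genes as a dashed line at 24.7% and 84.7%. In repeat 2 the olfactory and vomeronasal receptor genes stand apart at 25.5% and 24.1%, while in repeat 1 they lie near the dashed line.

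The locus named by the series, miR-9, has 3 copies in the mouse genome. Each gives the same mature microRNAs, printed here from RefSeq (GRCm38.p6) with the seed, bases 2 to 8, in capitals.
mmu-miR-9-5p: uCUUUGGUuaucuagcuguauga
mmu-miR-9-3p: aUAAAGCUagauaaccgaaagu
No Panx2 peak of either repeat overlapped a precursor. At Mir9-1 (chr3:88215598-88215686) the nearest repeat 1 peak lay 2303 bp away, with a fold of 1.71, and the nearest repeat 2 peak 410 bp away, with 1.83. At Mir9-3 (chr7:79505264-79505353) a repeat 1 peak of fold 1.76 lay 164 bp away (chr7:79505518-79506365), and a repeat 2 peak of 2.37 lay 9 bp away on the other side (chr7:79503974-79505254). At Mir9-2 (chr13:83738814-83738885) repeat 1 had no peak within 5 kb, and the nearest repeat 2 peak lay 4730 bp away, with a fold of 1.55.

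Repeat 1 thus had a peak within 5 kb of 2 of the 3 copies and repeat 2 of all 3. Over all 1136 microRNA genes the shares were 37.1% in repeat 1 and 94.5% in repeat 2. The long noncoding RNA genes that hold the copies carried peaks of both repeats. Mir9-3hg, of 34.4 kb, held 5 repeat 1 peaks and 12 repeat 2 peaks. C130071C03Rik, of 19.9 kb around Mir9-2, held 1 repeat 1 peak and 3 repeat 2 peaks. Gm3764, of 23.3 kb around Mir9-1, held 3 repeat 1 peaks and 4 repeat 2 peaks. The lists hold 143578 repeat 1 and 471569 repeat 2 peaks over a span of 2442 Mb, so genes of such lengths often hold some. Counts in other genes of these lengths were not taken, and these counts are no result about the locus. The genes for the microRNA machinery had repeat 1 peaks at an end at 3 of 16 (18.8%, against 24.7% of all protein-coding genes) and repeat 2 peaks at all 16 (100%, against 84.7%). The 3 were Ago2, the slicing Argonaute, with 1.82 in repeat 1 and 2.23 in repeat 2, Dgcr8, the partner of Drosha, with 1.86 in repeat 1 and 1.86 in repeat 2, and Tnrc6c, a silencing cofactor, with 1.80 in repeat 1 and 3.22 in repeat 2.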

How the data were processed

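ChIP-seq peak lists were analysed, 1 for each ChIP library. The submitters' processing notes name the mm10 build, MACS3 3.0.0a5, Bowtie2 2.3.5 and Trim Galore. Which control and cut-offs the peak caller received, the filters and the read depth were not given in the sources used here. Panx2 and Mgea5 lists have the broad layout and Polr1c lists the narrow one. The values deposited per peak are the fold (a ratio over background), the −log10 p and the −log10 q, as the authors' caller gave them. Their scale may differ between lists. They were set side by side for the repeats, and the same cuts were applied to each list. Genes with peaks of both repeats were ranked by a geometric mean of the folds, which joins values of different lists.

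Peaks on chromosomes 1 to 19 were compared by coordinates (Python 3.11.15, pandas 2.3.3, numpy 2.4.6). The members and gene lists were chosen with earlier results of these data known. Because there are 2 lists and no reads, every value is a description without a test. Genes and promoter windows came from RefSeq GRCm38.p6, whose coordinates are those of mm10. Gene ends were windows of 1000 bp on each side, bins were 1 Mb wide, and coverage is the share of bp in peaks. Intervals are Wilson 95% intervals and cover counting error only. Overlap counting was checked on 1000 simulated intervals with known answers.

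Named genes were the 8 of highest fold per gene class (geometric mean of the repeats where both had a peak), 8 long genes with the largest difference in covered share each way, the miR-9 loci and their host genes, the pannexins, Oga and Polr1c, up to 4 members of highest fold per list and 5 peaks of highest fold per class, and a few genes that the rule names are not reported here. Genes of single bins, promoters and the peaks of q of at most 0.01 were chosen after their values were seen. Alternatives were other overlap rules, −log10 p or q of at least 2, lists of equal length, other windows and bins, and leaving out chromosome 14 or a repeat.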

Additional observations from a re-analysis of the deposited data

Results flagged for a closer look

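Peaks outside chromosomes 1 to 19 entered no comparison. Repeat 1 had 1827 of them and repeat 2 had 7093, a signal in data not otherwise used. On X there were 1143 repeat 1 and 6088 repeat 2 peaks, on Y 488 and 523, on the mitochondrial genome 0 and 7, and on other contigs 196 and 475, each with repeat 1 given before repeat 2. A q of at most 0.01 was given to 1 of these repeat 1 peaks and 28 of these repeat 2 peaks.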

How the results depend on the processing

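The lists hold no reads, so depth limits every value here in a way that cannot be measured, and peaks of 1 library are not independent of each other. No paired analysis was possible because the results come from no test and rest on 1 list per repeat. Of 87 alternative values for 26 results, 49 stayed close (within 1.5 times, or within the binomial interval for a share of peaks), 35 moved and 3 crossed 1. The cause was not tested.

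The share of peaks in both was 28.3% of repeat 1 and 8.94% of repeat 2. It was 5.34% and 1.62% with 50% reciprocal overlap, 12.6% and 5.10% with the midpoint in a peak of the other repeat, 9.89% and 0.112% at a −log10 p of at least 2, 100% and 2.87% at a −log10 q of at least 2, and 8.81% in repeat 1 with lists of equal length. Genes with an end peak were 3311 in repeat 1 and 2508 in both with a 500 bp window, and 9059 and 8412 with 2500 bp. At a −log10 p of at least 2 they were 15 in repeat 1, 7087 in repeat 2 and 4 in both. Genes called from both repeats, 4388, ranged between 5098 without repeat 2 and 17509 without repeat 1. The median width of repeat 1 only peaks was 397.5 bp at a −log10 p of at least 2.

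The share of repeat 1 bp that repeat 2 also covered was 0.977 times the share of the span it covered, 1.14 and 1.02 times in bins of 0 and 1 to 3 genes, and 11.7 times at a −log10 p of at least 2, where 63 of 637 repeat 1 peaks were in both. Repeat 2 coverage at CG-rich starts, 2.69 times that around them, was 6.35 times with lists of equal length, an alternative chosen after the data were seen. The direction of the gene density and gene start contrasts held in each repeat under every alternative run for them.

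For Mgea5 repeat 1, the share of peaks overlapped by at least 1 bp was 48.4%, 27.3%, 47.4% and 41.4% for repeat 1 in both, repeat 1 only, repeat 2 in both and repeat 2 only. It was 9.79%, 5.25%, 11.8% and 9.81% with 50% reciprocal overlap, and 54.0%, 2.61%, 51.7% and 4.83% at a −log10 p of at least 2. For Polr1c repeat 2 the same classes had 3.69%, 0.835%, 4.69% and 3.36%, then 0.264%, 0.0563%, 0.403% and 0.392% with 50% reciprocal overlap, and 58.7%, 2.61%, 58.3% and 10.1% at a −log10 p of at least 2.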
